A study of Mus musculus with 21 samples.

Results

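The miRNAs described here are those of the Dlk1-Dio3 imprinted domain that run from miR-379 to miR-410. They were taken from the count tables by miRNA number, with any of 35 numbers counted as a member whatever its letter or arm. The rule gave 80 mature miRNAs of 1934 listed over both cohorts of mice: 79 of 1909 names in the dictionary used for virgin females, 73 of 1841 in that used for breeding trial females, and 72 in both. Small-RNA-seq had measured mature miRNAs in female mouse pituitary, the gland below the brain that secretes luteinizing hormone and other hormones.

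All mice were C57BL/6J females euthanized at proestrus, the stage of the estrous cycle that precedes ovulation. WT mice carried the unaltered *Zeb1* gene, *Zeb1 200H* mice were heterozygous and *Zeb1 200M* mice homozygous for a knock-in *Zeb1* allele with point mutations in the predicted miR-200a/b sites of its 3′ UTR. The allele is carried in every cell and not in the pituitary alone, and no library measured *Zeb1* mRNA. Virgin females of 8 to 12 weeks gave 11 libraries (3 WT, 4 *Zeb1 200H*, 4 *Zeb1 200M*), and females of 28 to 36 weeks that had gone through a breeding trial gave 10 (4 WT, 3 *Zeb1 200H*, 3 *Zeb1 200M*), each from a different mouse. The cohorts also differed in library preparation, instrument and miRNA dictionary, so that age and breeding cannot be told apart from these. By the authors' report most *Zeb1 200M* females bore no litter in the trial, so litter history and genotype cannot be told apart in that cohort.

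Genes of the Dlk1-Dio3 domain are expressed from only 1 parental chromosome. *Dlk1*, *Rtl1* and *Dio3* are read from the paternal copy, and the noncoding RNAs *Meg3*, *Rian* and *Mirg*, with the miRNAs among them, from the maternal copy. The miRNAs are thought to be cut from long primary transcripts that run through the noncoding genes, are most abundant in brain and other neural and endocrine tissues of the adult, and include regulators of dendrites and synapses in neurons, such as miR-134.

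In build GRCm38 (positions from RefSeq and GENCODE), 36 hairpins of the members lay on chromosome 12 between the first base of Mir379, 109709060, and the last base of Mir410, 109743795, a stretch of 34736 bases. Of these, 35 were on the plus strand, and Mir299b lay on the minus strand opposite Mir299a. Upstream in the order of transcription, 24 hairpins (Mir379 to Mir544) lay between annotated genes, and the last 12 (Mir382 to Mir410) lay within *Mirg* (109729764 to 109749460), 4 in introns, 4 in exons and 4 partly in an exon. The rule also took in 4 members outside this stretch, the arms of Mir341 and Mir370, whose hairpins lay in introns of *Rian* (109603940 to 109661716), 97464 and 90723 bases before Mir379. It took in miR-496b as well, whose hairpin was on chromosome 19 and which had no count in any library. So 75 of the 80 members belonged to the stretch that the name describes.

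Library totals were 3816917 to 10806313 counts in virgin females and 60037 to 191650 in breeding trial females. In the virgin cohort 76 of 79 members had a count and 70 had a mean of at least 10 counts per library. miR-496b, miR-654-3p and miR-654-5p had none, which allows at most 0.0297 counts per 1000000 (CPM) over the cohort, at 3 counts of its total. In the shallower breeding trial cohort 65 of 73 had a count, 42 had a mean of at least 10, and 8 had none, with a limit of 2.54 CPM. Reads amplified by PCR and not collapsed by molecule are not independent, so these limits and the intervals given here cover counting error only. Levels are CPM of all miRNA counts of a library. Fold changes were fitted with TMM scaling, which sets library sizes by the bulk of the miRNAs, so that a level and a fold change can differ in sign.

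WT replicate 1 of the virgin cohort stood apart from the other virgin WT libraries. It had the lowest total of the cohort, and its TMM factor was 0.616 where the others had 0.943 to 1.12. Of 70 members with a mean of at least 10 counts, 32 (45.7%) lay at least 1 log2 unit from the mean of the other virgin WT libraries, 22 lower and 10 higher, against 35.6% of 662 miRNAs of all kinds. In every other virgin library 8.57% of members or fewer lay that far from the rest of its group. The members farthest below were miR-544-5p (−2.85), miR-544-3p (−2.31), miR-376c-5p (−2.07) and miR-329-5p (−1.97), and those farthest above miR-679-3p (1.92), miR-666-5p (1.91), miR-411-5p (1.86) and miR-411-5p.2 (1.79). These were picked for their distance. Members with more G and C in the mature sequence tended to be higher in this library (Pearson r = 0.337, Spearman rho = 0.330 over 63 members with a sequence, a description over members of 1 library). Calls in comparisons with virgin WT are therefore given with and without it, an alternative that leaves 2 WT libraries.

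The members together made up 3.19 to 5.33% of the miRNA counts of a library. In virgin WT pituitary they summed to 31893 CPM in replicate 1, 40062 in replicate 2 and 40706 in replicate 4. The 4 *Zeb1 200H* libraries held 40554, 45131, 40082 and 41010.1 CPM, and the 4 *Zeb1 200M* libraries 41557, 44435, 44254 and 39640 CPM. Apart from WT replicate 1, the low library, the genotypes overlapped: the WT mean was 37554 ± 4913 (SD, n = 3), or 40384 ± 456 (n = 2) without it, against 41694 ± 2322 in *Zeb1 200H* and 42471 ± 2301 in *Zeb1 200M* (n = 4 each). In breeding trial females the sums were 44899, 48755, 46187 and 42447 CPM in WT, 51999, 53067 and 50197 in *Zeb1 200H*, and 53282, 49932 and 53172 in *Zeb1 200M*. Here every mutant library was above every WT library (45572 ± 2628, n = 4, against 51754 ± 1451 and 52129 ± 1903, n = 3 each). The Wilson 95% interval of a library's share reached at most 0.0176 percentage points either way for virgin females, less than the SD of any virgin group. In the breeding trial it reached 0.0903 to 0.179 points, near the SD of 0.145 to 0.263 points within groups, and the intervals of the highest WT library (4.88%, 4.75 to 5.00) and the lowest mutant library (4.99%, 4.87 to 5.12) overlapped.

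The order of the groups depended on the scale. On TMM library sizes the breeding trial means became 49638 ± 1616 in WT, 50129 ± 1955 in *Zeb1 200H* and 48782 ± 1465 in *Zeb1 200M*, and the groups overlapped. The virgin means became 45274 ± 5682 in WT (42005 ± 676 without replicate 1), 39465 ± 1420 and 38930 ± 1236, now lower in the mutants, with the lowest WT library at 41527 CPM and the highest of the mutants, *Zeb1 200H* replicate 2, at 41576. Abundant miRNAs of 2 other lists fell on the CPM scale over the same libraries: the endocrine miRNAs miR-7 and miR-375 went from 302072 ± 13020 CPM in breeding trial WT to 254892 ± 6959 in *Zeb1 200M*, and the epithelial miR-200 list from 66432 ± 629 to 8141 ± 628. Their part in the rise of the members' sum was not tested.

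**Figure D1:**
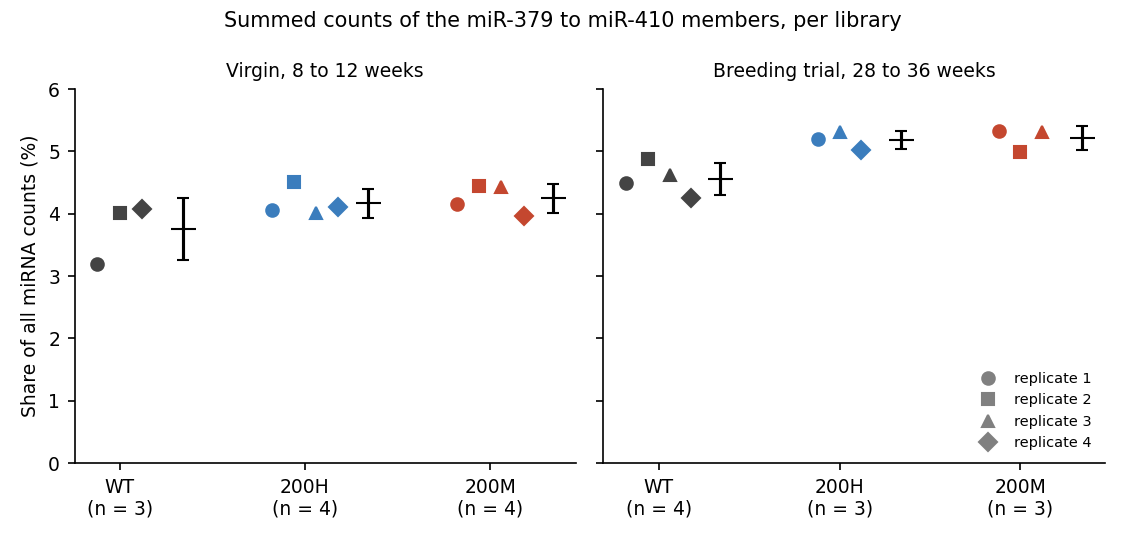
Share of all miRNA counts (%, y axis) that the members of the miR-379 to miR-410 rule took up in each library, by genotype (x axis), for virgin (left) and breeding trial females (right); symbols are libraries, bars the mean and SD. Virgin WT replicate 1 is lowest at 3.19%, and on this scale the 3 breeding trial libraries of each mutant genotype lie above the 4 WT libraries.

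No single member dominated the cluster. The 10 most abundant held 57.5% of its counts in virgin WT and 60.7% in breeding trial WT. miR-541-5p, cut from an intron of *Mirg*, was the most abundant in each of the 3 virgin WT libraries, with 4223, 3679 and 3807 CPM (10.4% of the cluster, rank 46 among all miRNAs). The next, miR-376a-3p, had 649, 3265 and 3384 CPM, and miR-369-3p had 684, 2926 and 2806 CPM, both low in replicate 1 alone. miR-411-5p went the other way, with 3851 CPM in replicate 1 and at most 1671 in the other WT libraries, as did its shifted form miR-411-5p.2, with 2101 CPM against 942 and 962.

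The rest of the 10 were miR-379-5p (2380.4 ± 295 CPM, n = 3), miR-154-5p (2101 ± 1199), miR-410-3p (2033 ± 297), miR-382-5p (1478 ± 288) and miR-300-3p (1389 ± 125.5). From miR-376a-3p (2433 ± 1546) down to miR-410-3p neighbours in this order differed by less than their SD. In breeding trial WT the most abundant were miR-541-5p (4325 ± 281 CPM, n = 4), miR-154-5p (4211 ± 145.2), miR-376a-3p (3820.0 ± 499) and miR-369-3p (3203 ± 63.7), which changed places between libraries. Over the 72 members listed in both dictionaries the rank order of mean WT levels was much the same in the cohorts (Spearman rho = 0.959, also 0.959 without virgin WT replicate 1; members share libraries, so this is a description), and the 10 highest had 9 in common.

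Some members were listed for 1 cohort only. miR-299a-3p, miR-299b-3p, miR-376b-5p, miR-376c-5p, miR-411-5p.2, miR-496a-3p.1 and miR-496a-3p.2 were listed only for virgin females, and miR-496a-3p only for breeding trial females. Among names listed in both, miR-382-3p averaged 293 CPM over virgin libraries and had 1 count in all breeding trial libraries together, and miR-679-5p averaged 14.3 CPM and likewise had 1 count. Whether the dictionaries held the same sequence under a name could not be read from the files, so these values are not shown to be a difference in level. miR-382-3p was singled out after its values were seen. The other members with at most 2 counts in breeding trial females averaged 6.18 CPM or less in virgin females.

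Both strands of a hairpin can yield a mature miRNA, named 5p and 3p, and in this cluster the 3p strand more often led. Of 37 hairpins with both arms listed and at least 10 counts on average, 13 gave mostly 5p and 24 mostly 3p reads in virgin WT, and 21 gave over 90% from 1 arm. In breeding trial WT 29 hairpins could be compared, 9 mostly 5p and 20 mostly 3p. All 29 were led by the same arm in both cohorts.

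The 5 hairpins with the highest summed level in virgin WT, over all 3 libraries, were Mir411, Mir541, Mir369, Mir379 and Mir376a. The order depended on WT replicate 1, which was high in miR-411-5p (3851 CPM, at most 1671 in the others). That library was also low in miR-154-5p (717 CPM against 2850 and 2734). Without it Mir541 led, and Mir154 took the place of Mir379. Mir541 was almost wholly 5p (99.8% in virgin WT), and its miR-541-3p stayed at 6.94 ± 0.567 CPM. Mir379 was 93.7, 87.8 and 87.3% 5p in virgin WT, 88.7 to 90.1% in *Zeb1 200H*, then 89.8 to 91.4% in *Zeb1 200M*. Mir411 was 94.7, 83.8 and 82.6% 5p in virgin WT and 82.3 to 87.7% over the mutants, with miR-411-3p at 464 ± 114 CPM in WT. Mir369 was 51.5% 5p in virgin WT replicate 1 but 15.7 and 14.9% in the other WT libraries, and 16.0 to 23.4% over the mutants. Mir376a was 12.2% 5p in that library, 2.42 and 2.09% in the others and 1.81 to 3.25% over the mutants. In virgin females WT replicate 1 thus had the highest 5p share of all libraries at the last 4 hairpins. The other WT libraries lay just below every mutant library for Mir379 and Mir369, and below *Zeb1 200M* alone for Mir411. In breeding trial females the 5p shares of Mir379, Mir411, Mir369, Mir376a and Mir541 overlapped between genotypes.

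Members are related in sequence as well as position. A mature sequence was found in the RefSeq table (GRCm38) for 73 of 80 members, and not for miR-376c-3p, miR-411-5p.2, miR-485-5p, miR-487b-3p, miR-496a-3p.1, miR-496a-3p.2 and miR-539-3p. The seed, bases 2 to 8, decides most of a miRNA's targets. The 73 sequences held 67 seeds, of which 6 were shared by 2 members each: miR-379-5p with miR-1193-5p, miR-379-3p with miR-411-3p, miR-370-5p with miR-1193-3p, miR-410-5p with miR-494-5p, miR-299a-3p with miR-299b-3p, and miR-376b-5p with miR-376c-5p. Several pairs were alike over the part of a read that was matched, the leading 19 bases in virgin and 18 in breeding trial libraries. In virgin libraries, the only ones to list them, miR-376b-5p and miR-376c-5p differed at 1 of the bases matched, and miR-299b-3p, 18 bases long, was the leading part of miR-299a-3p. In both cohorts miR-379-3p and miR-411-3p differed at 1 base, and so did miR-300-3p and miR-381-3p. The latter are shown, seed in capitals, because their levels are described in what follows.
miR-300-3p: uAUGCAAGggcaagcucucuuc
miR-381-3p: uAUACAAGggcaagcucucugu
Within the bases matched their difference was G4A (miR-300-3p first, positions from the 5′ end). Adenosines of several hairpins of this cluster are known to be edited to inosine, which is read as guanosine. A miR-381-3p read edited at that base would be counted as miR-300-3p, and whether any was is not measured by these counts.

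In virgin females, homozygous mutants were compared with WT to ask how the members differ when both copies of *Zeb1* lack these miR-200a/b sites. miR-494-3p and miR-679-5p, from hairpins less than 1 kilobase apart, were lower in *Zeb1 200M*. miR-679-5p had 29.3, 22.5 and 19.6 CPM in WT and 7.89, 12.5, 13.1 and 11.9 CPM in *Zeb1 200M*. miR-494-3p had 147, 278 and 306 CPM in WT and 153, 189, 177 and 187 CPM in *Zeb1 200M*. For miR-679-5p every WT library was above every mutant library, and for miR-494-3p all but WT replicate 1, which was the lowest of all. The log2 fold changes were −1.52 (SE 0.33, Benjamini–Hochberg adjusted *P* = 0.0314, edgeR) for miR-679-5p and −0.80 (SE 0.15, adjusted *P* = 0.0168) for miR-494-3p.

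These were the only 2 of 70 members tested that passed an adjusted *P* of 0.05, both lower, with 18 at an unadjusted *P* below 0.05 (150 of 678 miRNAs of all kinds). Of all 678 miRNAs tested, 6.49% passed (2.65% higher, 3.83% lower). The median log2 fold change was −0.12 over members and −0.00 over all miRNAs. Both calls were lost when any 1 of several libraries was left out, though the fold changes stayed negative, and neither was lost without WT replicate 1. miR-494-3p was lost without WT replicate 2 or 4 or without *Zeb1 200M* replicate 1, 2 or 3 (log2 fold changes over all libraries left out in turn, −0.89 to −0.70), and miR-679-5p without any 1 of the *Zeb1 200M* replicates (−1.74 to −1.06). DESeq2 called 8 members (11.4%, beside 13.3% of all miRNAs) and limma voom with sample weights 22 (31.4%, beside 27.1%).

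Without WT replicate 1 many more members differed between virgin *Zeb1 200M* and WT, in both directions: 19 of 71, 10 higher and 9 lower, where 23.9% of 703 miRNAs passed (13.4% higher, 10.5% lower). The members' median was −0.07 and that of all miRNAs 0.04. miR-544-3p, from the last hairpin before *Mirg*, was the most changed. It had 24.9, 196 and 191 CPM in WT and 609, 538, 664.95 and 405 CPM in *Zeb1 200M*. Every *Zeb1 200M* library was above every WT library, with or without WT replicate 1. The log2 fold change was 1.36 (SE 0.17, adjusted *P* = 0.000143) without that library and 1.77 (SE 0.49, adjusted *P* = 0.0751) with it. The other arm of the hairpin, miR-544-5p, was at 1.57, 23.3 and 15.4 CPM in WT and 34.5 to 58.1 CPM in *Zeb1 200M* (1.22, SE 0.23, adjusted *P* = 0.0026, and 1.60, adjusted *P* = 0.114, with all libraries).

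Neighbours of Mir544 also passed as higher without WT replicate 1. miR-487b-3p had 398, 429.7 and 469 CPM in WT and 646, 748, 709 and 806 CPM in *Zeb1 200M*, with no overlap (0.53, adjusted *P* = 0.00409, and 0.34, adjusted *P* = 0.278, with all libraries). miR-381-3p reached at most 1511 CPM in WT and at least 2076 in *Zeb1 200M* (0.38, adjusted *P* = 0.00563, and 0.40, adjusted *P* = 0.101). miR-381-5p (0.49) and miR-539-5p (0.38) passed as well, though miR-539-5p was at −0.25 with all libraries. Further upstream, miR-380-3p had 47.2, 141.03 and 158 CPM in WT and 239.6, 238, 251 and 219.7 CPM in *Zeb1 200M* (0.50, adjusted *P* = 0.00238, and 0.74, adjusted *P* = 0.121), again without overlap.

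Among the members that passed as lower without WT replicate 1 was the most abundant, miR-541-5p. It had 4223, 3679 and 3807 CPM in WT and 2795, 3250.2, 3048 and 2964 CPM in *Zeb1 200M*, every WT library above every mutant library. Its log2 fold change was −0.47 (SE 0.08, adjusted *P* = 0.00103) without WT replicate 1 and −0.83 (SE 0.21, adjusted *P* = 0.0579) with it. miR-494-3p (−0.89, adjusted *P* = 7.53e-05), miR-679-5p (−1.06, adjusted *P* = 0.00248) and miR-1193-3p (−0.64, adjusted *P* = 0.00324, and −0.37, adjusted *P* = 0.468, with all libraries), from 3 hairpins in a row, were lower. So were miR-409-5p (−0.49, and −0.16, adjusted *P* = 0.805, with all libraries), miR-369-3p (−0.58, and −0.27, adjusted *P* = 0.647) and miR-376c-3p (−0.37, and −0.47, adjusted *P* = 0.0585). The other highly abundant members did not pass: without that library miR-376a-3p was at −0.27, miR-411-5p at 0.10, miR-379-5p at 0.05, miR-154-5p at −0.20, miR-410-3p at 0.03, miR-382-5p at −0.18 and miR-300-3p at 0.23. With all libraries miR-411-5p was at −0.83 (SE 0.43), a value that rested on WT replicate 1.

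Heterozygous virgin females gave a like set of values, tested against the same WT libraries. miR-679-5p had 11.4, 9.28, 7.34 and 12.5 CPM in *Zeb1 200H* (log2 fold change −1.63, SE 0.34, adjusted *P* = 0.0308), all below WT. miR-494-3p had 189, 205.8, 157 and 184 CPM (−0.69, SE 0.15, adjusted *P* = 0.0397), below WT replicates 2 and 4 and above replicate 1. These 2 of 70 members passed, both lower, with 19 at an unadjusted *P* below 0.05 (131 of all kinds), where 5.06% of 672 miRNAs passed (1.64% higher, 3.42% lower). The medians were −0.08 over members and 0.01 over all miRNAs. miR-679-5p was lost without any 1 of the *Zeb1 200H* replicates (−1.86 to −1.19 over libraries left out in turn), and miR-494-3p without any 1 of these or without WT replicate 2 or 4 (−0.80 to −0.60). DESeq2 called 7 members (9.72%, beside 8.59% of all miRNAs) and limma voom 18 (25.7%, beside 22.6%).

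Without WT replicate 1, 20 of 70 members passed in virgin *Zeb1 200H* against WT, 8 higher and 12 lower, where 21.6% of 699 miRNAs passed (10.6% higher, 11% lower). The medians were −0.15 over members and 0.01 over all. miR-544-3p had 463, 488, 469 and 471 CPM, above every WT library and within a narrower range than in *Zeb1 200M* (1.16, SE 0.08, adjusted *P* = 2.03e-07, and 1.60, SE 0.47, adjusted *P* = 0.105, with WT replicate 1). miR-380-3p had 210.4, 262, 222.8 and 237 CPM (0.51, adjusted *P* = 0.00173, and 0.77, adjusted *P* = 0.144). miR-541-5p had 3022, 3234, 2823 and 2980.2 CPM, below every WT library (−0.44, adjusted *P* = 0.000405, and −0.77, adjusted *P* = 0.0907). miR-487b-3p had 554, 648, 646 and 585 CPM, above WT (0.31, adjusted *P* = 0.0229, and 0.13, adjusted *P* = 0.69). miR-369-3p changed direction, from 0.01 with all libraries to −0.33 (adjusted *P* = 0.00803) without WT replicate 1.

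Between virgin *Zeb1 200M* and *Zeb1 200H*, a comparison without WT replicate 1, 0 of 69 members passed in edgeR, DESeq2 or limma voom, with 5 at an unadjusted *P* below 0.05 (63 of all kinds), where 2.22% of 675 miRNAs passed. The smallest *P* was that of miR-369-3p, at 2277, 2625, 2599.7 and 2466 CPM in *Zeb1 200H* and 2259.96, 1895, 2377 and 2026 CPM in *Zeb1 200M*, which overlap (log2 fold change −0.27, SE 0.08, adjusted *P* = 0.176). miR-487b-3p (0.20, SE 0.08) and miR-376a-3p (−0.29, SE 0.12) followed, each at an adjusted *P* of 0.489. Fold changes of the members ran from −0.37 to 0.72, with a median of 0.02 beside −0.01 over all miRNAs.

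**Figure D2:**
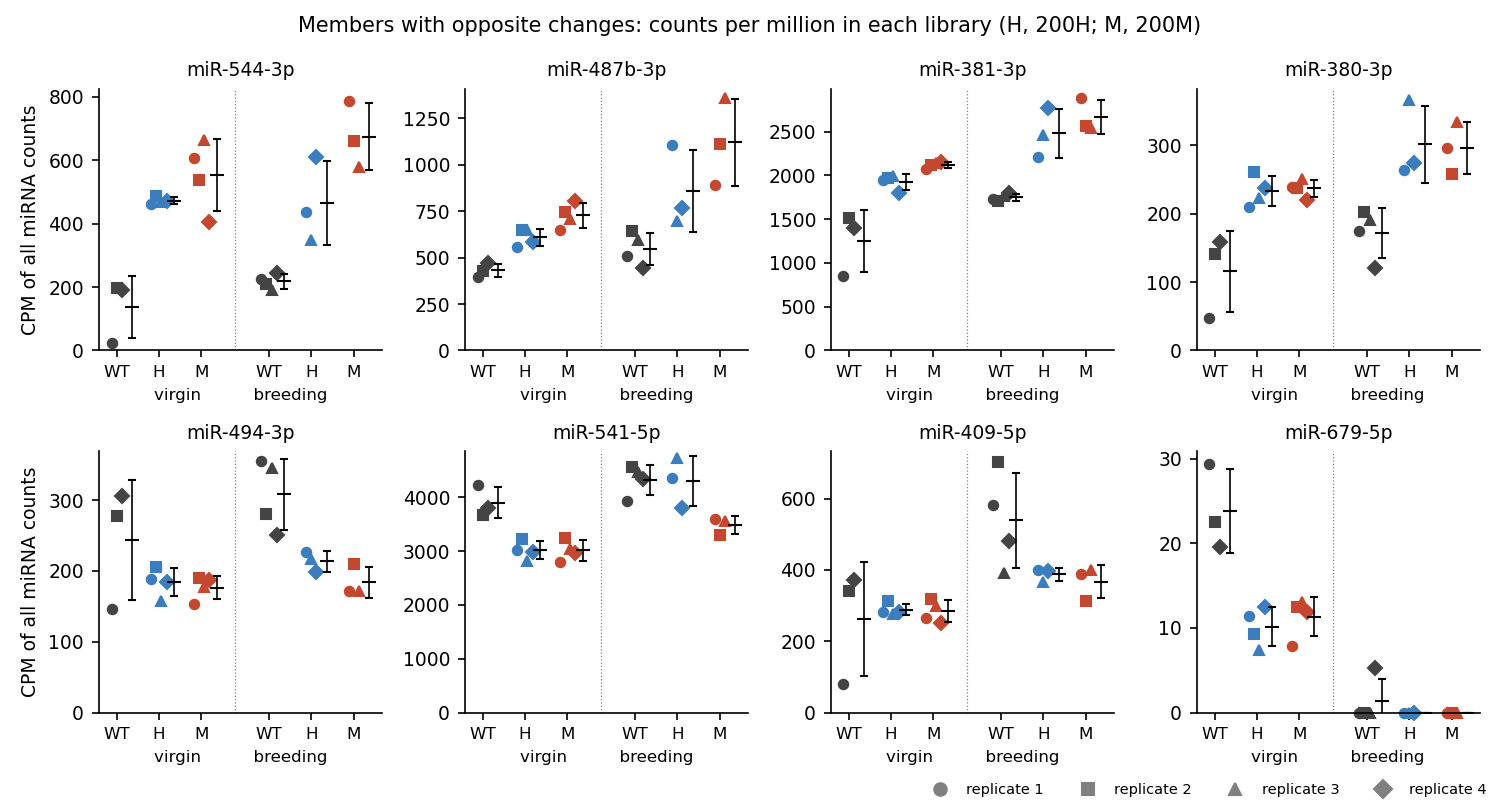
CPM of all miRNA counts (y axes, each from 0) of 8 members in every library, by genotype and cohort (x axes; H, *Zeb1 200H*; M, *Zeb1 200M*); symbols are replicates, bars mean and SD. In the top row (miR-544-3p, miR-487b-3p, miR-381-3p, miR-380-3p) WT libraries lie lowest, in the bottom row (miR-494-3p, miR-541-5p, miR-409-5p, miR-679-5p) most virgin WT libraries lie highest, apart from virgin WT replicate 1 at 79.9 CPM of miR-409-5p and 147 CPM of miR-494-3p.

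The breeding trial cohort asked the same of older females, in libraries of their own with far fewer counts. miR-544-3p was again the most changed member in *Zeb1 200M*. It had 226, 211, 190.3 and 245 CPM in WT and 787, 660.3 and 578 CPM in *Zeb1 200M*, 16 to 82 counts per library. The groups were far apart, at a log2 fold change of 1.35 (SE 0.19, adjusted *P* = 6.25e-06). miR-487b-3p had 511, 641, 595 and 444 CPM in WT and 889.8, 1111 and 1359.8 CPM in *Zeb1 200M*, also without overlap (0.84, SE 0.16, adjusted *P* = 0.000234).

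miR-494-3p and miR-541-5p were lower in breeding trial *Zeb1 200M* as well. miR-494-3p had 356, 281, 345 and 250.5 CPM in WT and 171, 209 and 171 CPM in *Zeb1 200M* (−0.95, SE 0.23, adjusted *P* = 0.0026). miR-541-5p had 3928, 4564, 4471 and 4336 CPM in WT and 3605, 3301 and 3558 CPM in *Zeb1 200M* (−0.54, SE 0.10, adjusted *P* = 0.00015). Neither overlapped between genotypes. miR-409-5p had 582, 702, 392 and 480.0 CPM in WT and 388, 314 and 399 CPM in *Zeb1 200M*, with WT replicate 3 within the range of the mutants (−0.80, SE 0.20, adjusted *P* = 0.00247).

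In all, 9 of 43 members passed, 5 higher and 4 lower, where 35.9% of 276 miRNAs passed (20.3% higher, 15.6% lower), so that the members' share was below the background. The other 4 were miR-300-3p (1466 to 1617 CPM in WT, 2424 to 2738 in *Zeb1 200M*; 0.46, adjusted *P* = 0.0026), miR-381-3p (1711 to 1795 and 2541 to 2886; 0.37, adjusted *P* = 0.0122), miR-380-3p (0.60, adjusted *P* = 0.0488) and miR-376c-3p (1219.97 to 1443 and 1084 to 1156; −0.46, adjusted *P* = 0.00869). miR-381-3p and miR-376c-3p were named after their values were seen. So were miR-134-5p, miR-381-5p, miR-485-5p, miR-539-5p, miR-544-5p, miR-667-3p, miR-668-3p and miR-1193-3p. The median log2 fold change was 0.01 over members and 0.00 over all. miR-380-3p lost its call without WT replicate 1 or 4 or any 1 of the *Zeb1 200M* replicates (0.45 to 0.70 over libraries left out in turn), and miR-381-3p without *Zeb1 200M* replicate 1 (0.31).

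Mature sequences of some of the members with changes described here are shown with the seed in capitals, those higher in mutants ahead of those lower. miR-487b-3p, also among the largest changes, had no sequence in the RefSeq table, and miR-544-5p is not shown. No seed was shared among the sequences shown.
miR-544-3p: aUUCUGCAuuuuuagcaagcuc
miR-380-3p: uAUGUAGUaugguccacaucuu
miR-494-3p: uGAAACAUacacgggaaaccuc
miR-541-5p: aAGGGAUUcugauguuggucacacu
miR-409-5p: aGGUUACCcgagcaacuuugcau
miR-679-5p: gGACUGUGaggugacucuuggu
Over members with a sequence, the GC content was not clearly related to the fold change in *Zeb1 200M* against WT (Pearson r = −0.153 over 63 members in virgin females, 0.0203 over 64 without WT replicate 1, −0.155 over 40 in breeding trial females; descriptions over members, which share libraries).

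In breeding trial *Zeb1 200H* against WT, miR-544-3p was higher and miR-409-5p lower. miR-544-3p had 436, 349.8 and 609 CPM in *Zeb1 200H*, above all 4 WT libraries (log2 fold change 0.94, SE 0.22, adjusted *P* = 0.00418). miR-409-5p had 399.99, 366 and 396 CPM, with WT replicate 3 (392 CPM) inside that range (−0.65, SE 0.21, adjusted *P* = 0.0445). These were 2 of 42 members, 8 at an unadjusted *P* below 0.05 (73 of all kinds), where 12.0% of 267 miRNAs passed (4.87% higher, 7.12% lower). miR-494-3p (227, 217 and 198 CPM, all below WT; −0.69, adjusted *P* = 0.0606) and miR-487b-3p (1109, 699.6 and 769 CPM, all above WT; 0.52, adjusted *P* = 0.0801) did not pass. With a block for the replicate number 5 members passed, where 17.6% of all miRNAs did: miR-544-3p (0.92, adjusted *P* = 0.00023), miR-487b-3p (0.60, adjusted *P* = 0.00597), miR-494-3p (−0.71, adjusted *P* = 0.0135), miR-409-5p (−0.53, adjusted *P* = 0.0301) and miR-380-3p (0.72, adjusted *P* = 0.0317). The medians were 0.12 over members and 0.00 over all.

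Without the block, the heterozygous calls of the breeding trial were fragile. miR-409-5p was lost without WT replicate 1 or 2 or any 1 of the *Zeb1 200H* replicates (−0.76 to −0.52), and miR-544-3p without *Zeb1 200H* replicate 4, the highest (0.68). The count was then 0 without *Zeb1 200H* replicate 4, 1 without WT replicate 1 or 2 or *Zeb1 200H* replicate 1 or 3, and 3 without WT replicate 4. Between breeding trial *Zeb1 200M* and *Zeb1 200H*, 0 of 42 members passed in edgeR, DESeq2 or limma voom, with 3 at an unadjusted *P* below 0.05 (40 of all kinds), where 1.09% of 274 miRNAs passed. These 3 were miR-541-5p (−0.34, SE 0.14, adjusted *P* = 0.209), miR-485-5p (−0.59, SE 0.27, adjusted *P* = 0.27) and miR-544-3p (0.42, SE 0.21, adjusted *P* = 0.296), and the medians were −0.04 over members and 0.02 over all.

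Scaling by library totals in place of TMM, chosen after the data were seen, moved the median of all miRNAs by over 0.1 log2 in every comparison with WT: to 0.34 and 0.29 in virgin *Zeb1 200M* and *Zeb1 200H*, and to 0.24 and 0.18 in breeding trial *Zeb1 200M* and *Zeb1 200H*. The members' medians moved with it, to 0.22, 0.18, 0.24 and 0.30. On that scale breeding trial *Zeb1 200M* had 12 members higher and 3 lower (84 and 26 over all miRNAs, 39.9% called), and *Zeb1 200H* 7 higher and 0 lower (54 and 15, 25.8%). Virgin *Zeb1 200M* had 1 higher and 1 lower (39 and 19 over all miRNAs, 8.55%), and *Zeb1 200H* 0 higher and 1 lower (21 and 21, 6.25%). The median over members was thus negative with TMM and positive with library totals in both virgin comparisons. Of the members lower with TMM, miR-494-3p stayed below 0 in all 4 comparisons (−0.71 to −0.41), but passed on this scale only in breeding trial *Zeb1 200M* (adjusted *P* = 0.0189). miR-541-5p likewise stayed below 0 in all 4 (−0.37 to −0.01), and miR-544-3p above 0 (1.12 to 2.01). miR-679-5p kept its call in virgin *Zeb1 200M* (−1.06) and *Zeb1 200H* (−1.22). miR-409-5p turned above 0 in virgin *Zeb1 200M* (0.10) and *Zeb1 200H* (0.13). In breeding trial females miR-409-5p passed in *Zeb1 200M* (−0.57, adjusted *P* = 0.0324) but no longer in *Zeb1 200H* (−0.47, adjusted *P* = 0.123). The call of miR-376c-3p in breeding trial *Zeb1 200M* was lost (−0.22, adjusted *P* = 0.168).

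Calls are also given by position, without a test between segments. In breeding trial *Zeb1 200M* all 5 higher members came from the 27 tested between Mir379 and *Mirg* (5 higher, 2 lower). Those called within *Mirg* (2 of 14) were all lower. Over all miRNAs 20.3% were higher and 15.6% lower in this comparison. In virgin *Zeb1 200M* without WT replicate 1 the counts were 9 higher and 6 lower of 43 before *Mirg*, and 0 higher and 3 lower of 25 within it, and in virgin *Zeb1 200H* 8 higher and 6 lower of 42, and 0 higher and 6 lower of 25. In these 3 comparisons the median log2 fold change was 0.07, 0.01 and −0.02 before *Mirg* and −0.16, −0.20 and −0.23 within it. With all virgin libraries the 2 calls of each comparison, both lower, lay before *Mirg*. The 5 hairpins just before *Mirg*, Mir300, Mir381, Mir487b, Mir539 and Mir544, gave no member with a negative fold change in breeding trial *Zeb1 200M*, nor in virgin *Zeb1 200M* without WT replicate 1. This stretch and the split at *Mirg* got no test, the stretch was noticed in the data, and with library totals most members of the cluster were positive. On that scale miR-410-3p (0.45, adjusted *P* = 0.00634, edgeR) and miR-134-5p (0.42, adjusted *P* = 0.0193), both from within *Mirg*, passed as higher in breeding trial *Zeb1 200M*.

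**Figure D3:**
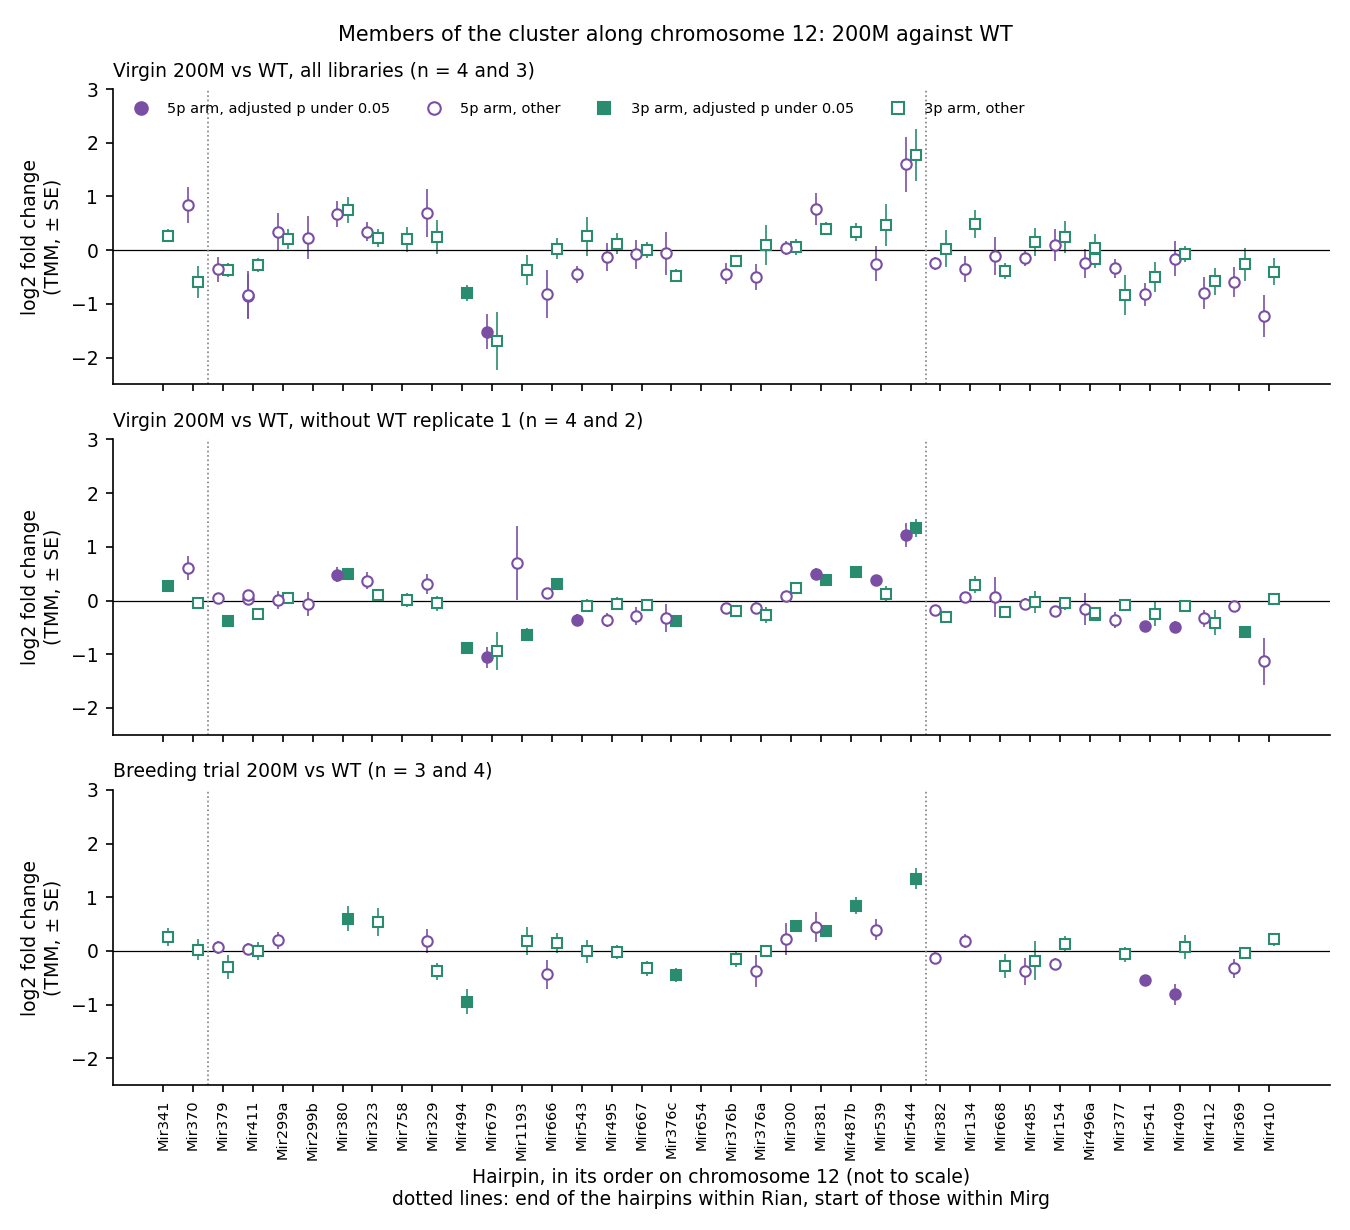
Log2 fold change of *Zeb1 200M* against WT (y axis, TMM scaling, bars ± SE) for each member tested, by hairpin in its order on chromosome 12 (x axis, not to scale), in virgin females with all libraries (top) and without WT replicate 1 (middle) and in breeding trial females (bottom); circles are 5p and squares 3p arms, filled where the adjusted *P* was below 0.05. miR-544-3p is the highest point of each panel (1.77, 1.36 and 1.35), and filled points to the right of the second dotted line, within *Mirg*, lie below 0 in the middle and bottom panels.

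Since the cohorts share no libraries, their fold changes could be set against each other. For *Zeb1 200M* against WT, 28 of 43 members tested in both (65.1%; 73.9% of 264 miRNAs of all kinds) had the same sign with all virgin libraries, and 36 (83.7%; 79.9% of all) without virgin WT replicate 1. All 9 members that passed in breeding trial females had the same sign in virgin females, as did 85 of 94 miRNAs of all kinds (90 of 94 without virgin WT replicate 1). Of 15 members that passed in virgin females without that library and were tested in the breeding trial, 14 had the same sign there (89 of 96 miRNAs of all kinds), and miR-1193-3p did not (−0.64 and 0.18). With all libraries 1, miR-494-3p, passed in both (11.1% of the breeding trial and 50% of the virgin list), where miRNAs of all kinds gave 23 (23.2% and 52.3%). Without virgin WT replicate 1 there were 8 (88.9% and 42.1%): miR-376c-3p, miR-380-3p, miR-381-3p, miR-409-5p, miR-487b-3p, miR-494-3p, miR-541-5p and miR-544-3p, where miRNAs of all kinds gave 61 (61.6% and 36.3%). For *Zeb1 200H* against WT, 23 of 42 (54.8%; 58.8% of all) shared a sign and 29 (69.0%; 74.5% of all) without that library. With all libraries 0 members passed in both, where miRNAs of all kinds gave 15 (46.9% of the breeding trial and 44.1% of the virgin list). Without it 2 did, miR-409-5p and miR-544-3p (100% and 10.0%), where miRNAs of all kinds gave 26 (81.2% and 17.2%).

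The difference between cohorts was itself tested as the interaction of genotype and cohort over names in both dictionaries. For *Zeb1 200M*, 0 of 62 members passed in edgeR, with 1 at an unadjusted *P* below 0.05 (27 of all kinds), and 0% of miRNAs of all kinds did. For *Zeb1 200H*, 0 of 63 members passed, with 4 at an unadjusted *P* below 0.05 (23 of all kinds), and 0% of 489 miRNAs did. DESeq2 called 0 in each. Without the filter on low counts edgeR called 1 member for *Zeb1 200H*, miR-411-5p (adjusted *P* = 0.0259), whose virgin fold change rested on WT replicate 1. A change that passed in 1 cohort alone was therefore not shown to differ between them.

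Neighbouring miRNAs of the Dlk1-Dio3 domain were abundant as well. Those of the stretch antisense to *Rtl1*, led by miR-127-3p (27067 CPM over virgin libraries), summed to 48266 to 54565 CPM in virgin WT, 46043 to 50446 in *Zeb1 200H*, then 47583 to 50131 in *Zeb1 200M*. None of 11 tested passed in either mutant with all virgin libraries, and 1 was lower in each without WT replicate 1, while in breeding trial *Zeb1 200M* 1 of 8 was higher and 1 lower, with miR-432 at 0 in both cohorts and miR-3071-3p in the breeding trial. Those on the *Meg3* side, led by miR-337-3p (1098 CPM) in virgin and miR-540-5p (738 CPM) in breeding trial females, summed to 2395 CPM in virgin WT replicate 1 and 3394 to 4351 in the other virgin libraries, and to 2582 to 3862 in the breeding trial. Of these, 0 of 14 passed in either virgin mutant against WT (2 higher in each without WT replicate 1), and 2 of 14 were higher in virgin *Zeb1 200M* than in *Zeb1 200H*. In the breeding trial, 2 of 7 were higher and 2 lower in *Zeb1 200M* and 1 higher and 1 lower in *Zeb1 200H*, both against WT. The few others of the domain, led by miR-3072-3p, summed to 77.5 to 245 CPM in virgin and 171 to 380.5 in breeding trial libraries, with 0 of 5 called in virgin *Zeb1 200M* and 0 of 4 in *Zeb1 200H* (1 higher and 1 lower, and 1 higher, of 5 each without WT replicate 1) and 1 of 1 lower in breeding trial *Zeb1 200M*. miR-453 was at 0 in both cohorts, and miR-1188-3p and miR-1197-5p in the breeding trial.

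Pituitary cells carry miRNAs of endocrine and of epithelial cells. miR-7 and miR-375, miRNAs of endocrine cells led by miR-7a-5p (124175 CPM over virgin and 117402 over breeding trial libraries), summed to 270315 to 369412 CPM in virgin WT, 254169 to 278419 in *Zeb1 200H*, then 232690 to 280730 in *Zeb1 200M*, highest in WT replicate 1. None of 7 passed with all virgin libraries (without that library, 2 lower in *Zeb1 200M* and 1 in *Zeb1 200H*), and in the breeding trial 2 of 5 were lower in *Zeb1 200M* and 1 in *Zeb1 200H*. The epithelial list (miR-200, miR-141, miR-429 and miR-205), led by miR-141-3p in virgin and miR-200c-3p in breeding trial females, separated the 3 genotypes. It summed to 58599 to 70178 CPM in virgin WT, 11982 to 14594 in *Zeb1 200H*, then 7010 to 7556 in *Zeb1 200M*, with 11 of 11 tested lower in each mutant (12 of 12 without WT replicate 1), and to 65650 to 67164, 12872 to 13783 and 7551 to 8801 CPM in the breeding trial, with 8 of 8 lower in each. Between the mutants, 7 of 10 were lower in *Zeb1 200M* in virgin and 2 of 6 in breeding trial females. Only miR-429-5p was at 0, in the breeding trial.

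Summed CPM of markers of other cells also differed between genotypes. In tissue as a whole, fewer cells of a type and less of a miRNA per cell cannot be told apart. The neuronal list, led by miR-124, summed to 1717, 4326 and 4905 CPM in virgin WT, 7685 to 8412 in *Zeb1 200H*, then 8261 to 11729 in *Zeb1 200M*, with 3 of 10 tested higher and 0 lower in *Zeb1 200M*, and with 2 higher in *Zeb1 200H* (6 and 5 without WT replicate 1). In the breeding trial it summed to 5529.6 to 6496 CPM in WT, 9511 to 11627 in *Zeb1 200H*, then 15491 to 15766 in *Zeb1 200M*, with 3 of 5 higher in *Zeb1 200M* but only 1 in *Zeb1 200H*, and miR-128-2-5p and miR-138-1-3p at 0. Between the mutants, 2 of 10 were higher in *Zeb1 200M* in virgin and 1 of 5 in breeding trial females. Like miR-544-3p and miR-487b-3p, the sum was higher in every mutant than in every WT library of its cohort. The same held for the oligodendrocyte list and for the vessel wall and endothelial list described next. In breeding trial *Zeb1 200H* these lists summed to 1345 to 1873 and 12775.5 to 14171 CPM. Such sums rest on library totals, the scale on which the median of all miRNAs was positive in the mutants. With TMM the virgin median log2 fold changes in *Zeb1 200M* and *Zeb1 200H* were −0.11 and −0.09 for oligodendrocyte miRNAs. They were 0.35 and 0.40 for neuronal and 0.31 and 0.19 for vessel miRNAs. In the breeding trial all 3 lists had positive medians. The part of any of these lists in the changes of the members was not tested.

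The remaining lists ranged widely in level. Oligodendrocyte miRNAs, led by miR-338-3p, summed to 498 to 640.3 CPM in virgin WT and 783 to 890 in the mutants, with 0 of 4 called (2 higher in each mutant without WT replicate 1), and to 832 to 1242 in breeding trial WT and 1554 to 1802 in *Zeb1 200M*, with 1 of 2 higher, with miR-219b-3p at 0 in both cohorts and miR-219b-5p and miR-219c-3p in the breeding trial. Vessel wall and endothelial miRNAs, led by miR-126a-3p, summed to 7722 to 8515 CPM in virgin WT and 8783 to 12051 in the mutants, with 1 of 7 higher in *Zeb1 200M* and 0 in *Zeb1 200H* (2 and 1 without WT replicate 1), and to 10075 to 10515 and 14535 to 16118 CPM in breeding trial WT and *Zeb1 200M*, with 4 of 4 higher and miR-126b-3p and miR-126b-5p at 0. Blood cell miRNAs, led by miR-451a, summed to 6132 to 11097 CPM in virgin WT and 9779 to 20598 in the mutants, with 0 of 10 called (without WT replicate 1, 1 higher in *Zeb1 200M* and 2 in *Zeb1 200H*), and to 6350.1 to 9312 and 8898 to 12735 in breeding trial WT and *Zeb1 200M*, with 3 of 6 higher. miR-142b and miR-451b were at 0 in both cohorts and miR-223-5p in the breeding trial. Skeletal muscle miRNAs, led by miR-1a-3p, stayed at 9.52 to 98.6 CPM in virgin and 0 to 47.0 in breeding trial libraries, with 0 of 5 called in virgin *Zeb1 200M* and 0 of 4 in *Zeb1 200H* (3 and 1 higher without WT replicate 1), none tested in the breeding trial, and miR-133a-5p, miR-133b-5p, miR-133c and miR-206-5p at 0, joined in the breeding trial by miR-1a-1-5p and miR-1a-2-5p. None of these 4 lists had a miRNA called in breeding trial *Zeb1 200H* against WT or between the mutants. The part of these cells in the members' changes was not tested.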

How the data were processed

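Counts of reads per mature miRNA in female mouse pituitary were deposited by the authors, 1 column per library. Per the labels, the authors removed adapters (cutadapt), retained reads with a quality score of at least 30 at every base, removed size standards and spike-ins, and matched the leading 19 bases to TargetScanMouse names (virgin) or the leading 18 to miRBase names (breeding trial). The adapters carried random bases, and no collapsing by them is named. All 21 libraries were used. Of 6 tables, columns repeated in a second table (21) differed in 0 cases.

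Total counts were 3816917, 10806313 and 9029142 in virgin WT (replicates 1, 2 and 4), 10266419, 9698685, 10082073 and 8551806 in virgin *Zeb1 200H*, and 10515664, 9508346, 8502878 and 10260660 in virgin *Zeb1 200M*. They were 154546, 113937, 84093 and 191650 in breeding trial WT, 110003, 60037 and 131324 in *Zeb1 200H* (replicates 1, 3 and 4), and 87665, 124190 and 122810 in *Zeb1 200M*. A floor of 3 counts corresponds to 0.278 to 0.786 CPM in a virgin library and 15.7 to 50.0 CPM in a breeding trial library.

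Genotypes were compared in pairs within each cohort with the quasi-likelihood F test of edgeR 4.0.16 (R 4.3.3), TMM scaling and the filterByExpr filter (minimum count 10, total 15). *P* values were adjusted by Benjamini–Hochberg over every miRNA in the test, and 0.05 was the threshold. The SE of an edgeR log2 fold change was derived from the test, as its absolute value divided by the square root of F. The difference between cohorts was an interaction term over the 1816 shared names. Alternatives were DESeq2 1.42.0, its size factors in edgeR, TMM factors set without the members, voom of limma 3.58.1 with sample weights, 1 fit over the 3 genotypes, a block for the replicate number, no filter, and each library left out in turn. Scaling by library totals, and DESeq2, voom and the fit over 3 genotypes without virgin WT replicate 1, were chosen after seeing the data. In breeding trial WT and *Zeb1 200H*, libraries with the same replicate number deviated together in all 3 pairs (r 0.198 to 0.330), which was read by comparison after the calls were known. The labels name no shared litter or batch, so the pairing comes from the counts, and the blocked values stand beside that result. Scripts were tested on simulated data.

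The members and lists were chosen with earlier results of these data known. Members named were the 10 highest in virgin WT, the 5 largest changes that passed in each comparison at a mean of at least 10 counts, both arms of the 5 hairpins highest in virgin WT, and any with an adjusted interaction *P* below 0.05. Lists described beside them were miRNAs of the rest of the Dlk1-Dio3 domain (*Rtl1* antisense stretch, *Meg3* side, others), endocrine, epithelial, neuronal, oligodendrocyte, blood, vessel and skeletal muscle cells. Their part in the result was not tested.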

Additional observations from a re-analysis of the deposited data

Results flagged for a closer look

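Of 63 groups of at least 4 libraries examined for a library far from the others, 1 was flagged. In breeding trial WT, miR-379-3p stood at 439 CPM in replicate 2, where the other libraries had 291 to 309. Chance flags about 1 in 20 groups. Groups of 3, among them virgin WT with its replicate 1, were not examined by this rule.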

How the results depend on the processing

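Leaving out each library in turn gave 0 to 19 members called in virgin *Zeb1 200M* against WT, 0 to 20 in virgin *Zeb1 200H* against WT, 8 to 11 in breeding trial *Zeb1 200M* against WT, 0 to 3 in breeding trial *Zeb1 200H* against WT, and 0 to 0 between the mutants in each cohort. For the cohort difference, leaving out each library of both cohorts in turn gave 0 members for each mutant. The members' medians ran from −0.15 to −0.0136, −0.15 to −0.04, −0.02 to 0.07 and 0.04 to 0.12 in the comparisons with WT, and from 0.01 to 0.05 (virgin) and −0.10 to 0.0348 (breeding trial) between mutants. Summed CPM ran from 35977 to 40384 in virgin WT, 40549 to 42232 in *Zeb1 200H*, then 41817 to 43415 in *Zeb1 200M*, and from 44511 to 46614, 51098 to 52533 and 51552 to 53227 in the breeding trial.

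In virgin *Zeb1 200M* against WT (2 called), DESeq2 called 8 (13.3% of all miRNAs), voom 22 (27.1%) and the fit over 3 genotypes 8 (12.8%). Without WT replicate 1, DESeq2 called 22 (24.7%), the fit over 3 genotypes 24 (25.2%) and voom 23 (27.7%). In virgin *Zeb1 200H* against WT (2 called) these were 7 (8.59%), 18 (22.6%) and 8 (9.52%), and 22 (24.8%), 18 (18.7%) and 22 (23.9%). In breeding trial *Zeb1 200H* against WT (2 called), DESeq2 called 1 (3.62%) and voom 4 (13.9%), and the DESeq2 median was 0.0118. With library totals the counts were 1 (virgin *Zeb1 200H*; 6.25% of all miRNAs), 15 (breeding trial *Zeb1 200M*; 39.9%) and 7 (breeding trial *Zeb1 200H*; 25.8%), and the medians 0.22, 0.18, 0.0790 (virgin, mutants compared last), 0.24 and 0.30 (breeding trial against WT). Without a filter the cohort difference of *Zeb1 200H* had 1 member. On TMM sizes the summed CPM were 45274 in virgin WT, 38930.1 in virgin *Zeb1 200M*, and 49638, 50129 and 48782 in breeding trial WT, *Zeb1 200H* and *Zeb1 200M*. miR-369-3p in virgin *Zeb1 200H* (0.01) reversed to −0.33 in voom and without WT replicate 1, where DESeq2 gave −0.35, the fit over 3 genotypes −0.33 and voom −0.35. Over libraries left out in turn it ran from −0.33 to 0.25. The cause was not tested.

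Apart from breeding trial WT and *Zeb1 200H*, libraries with the same replicate number did not correlate above 0.1 in every pair. They did in 1 of 3 pairs of virgin *Zeb1 200M* and WT (r −0.37 to 0.11) and 0 of 3 of *Zeb1 200H* and WT (−0.06 to 0.08). The virgin mutants had 3 of 4 such pairs (−0.06 to 0.35), and the 5 breeding trial pairs with *Zeb1 200M* had 0 (at most 0.0725). Libraries with different numbers reached r of 0.387 in virgin and 0.210 in breeding trial females. A value above 0.1 alone therefore does not show a pair. With a block for the number, 0 members were called in each virgin comparison with WT (medians −0.0400 and −0.0121, with 2.95 and 2.68% of all miRNAs called). Between the mutants of either cohort 0 were called. In breeding trial *Zeb1 200H*, where 3 of 3 pairs with WT were above 0.1, 5 were called (17.6%). In breeding trial *Zeb1 200M* 10 were called (31.5%), where miR-380-3p was lost and miR-667-3p and miR-668-3p were gained. In virgin females the block left the log2 fold changes of miR-494-3p (−0.79 and −0.62 in *Zeb1 200M* and *Zeb1 200H*) and miR-679-5p (−1.52 and −1.45) near those without it.

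Of the named members' values under all alternatives, 342 of 468, 358 of 468 and 402 of 416 kept direction and side of the threshold in virgin females, and 280 of 315, 280 of 315 and 275 of 294 in the breeding trial, in the order *Zeb1 200M* and *Zeb1 200H* against WT, then between mutants. Depth limits the breeding trial, where 42 members had a mean of 10 counts. Groups held 2 to 4 libraries, and no collapsing of reads by molecule is named.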
